A study of Homo sapiens with 12 samples.

Results

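The genes described here are 9 members of the transforming growth factor beta (TGF-beta) pathway: the ligands TGFB1 and TGFB2, the receptor TGFBR2, the signal transducer SMAD3, the negative regulators SMAD7, BAMBI, SKIL and PMEPA1, and the secreted target TGFBI. Their probe sets were found by gene symbol among the 18132 genes named on the array, and the list of genes was drawn up with earlier results of these data known. Together they have 24 of the 44988 probe sets that carry 1 gene symbol. All 24 passed a filter on low signal (a log2 signal of 5 on at least 2 arrays), as did 38924 probe sets and 16205 genes in all.

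In this pathway a dimeric ligand, released from a latent complex, brings type II and type I receptor kinases together, and the type I receptor phosphorylates SMAD2 and SMAD3. These join SMAD4, enter the nucleus and raise or lower target genes. Among the genes raised are SMAD7, BAMBI, SKIL and PMEPA1, whose products damp the same signal. In normal lung epithelium the pathway restrains growth and shapes the extracellular matrix, while carcinoma cells often lose the growth arrest and keep the responses linked to migration. The name of a target gene says what has been seen elsewhere, and no array here measured SMAD phosphorylation or added ligand.

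RNA from 3 lines of non-small cell lung cancer (H1650, H1693, H1993) was read on 12 Affymetrix PrimeView arrays. The submitters describe all of them as lines that overexpress MARK2, a kinase that acts on microtubule-associated proteins and in cell polarity. Each line carried either a lentiviral short hairpin RNA against MARK2 (labelled KD) or the empty pLKO vector (labelled PLKO CONTROL), with 2 biological replicates in each of the 6 groups. No untransduced cells and no non-targeting hairpin were analysed here, so every group shares lentiviral transduction. An array averages over all cells of a culture, so fewer cells with a transcript and less of it per cell cannot be told apart.

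MARK2 signal fell in the knockdown arrays of H1993, with a log2 change of -2.35 (limma adjusted p = 6.47e-06), and of H1693, with -1.27 (adjusted p = 0.000258). In H1650 its change of -0.29 did not pass the threshold (adjusted p = 0.156), and the array groups overlapped. The control arrays of H1650 averaged 5.94 on the brightest MARK2 probe set, near the filter level of 5. Those of H1693 averaged 7.86 and those of H1993 9.12, and the part of this lower level in the H1650 result was not tested. RNA integrity also differed in H1650. The GAPDH control probes for the 3' end exceeded those for the 5' end by 2.68 ± 0.56 (log2, SD, n = 2) in the H1650 control and by 6.82 ± 0.07 in the H1650 knockdown, against -0.10 to 0.00 in the 4 groups of the other lines. In H1650 the knockdown and this loss of 5' signal therefore cannot be told apart. Of 6 epithelial markers, 4 had a log2 signal of at least 8 in every group, including EPCAM and CDH1. KRT7 was at 6.38 to 6.70 in H1693, and KRT8 went from 11.66 to 7.19 in H1650. The 4 lung lineage markers lay between 6.66 and 8.01. Of 6 leukocyte markers PTPRC was below 5 in every group and the others were not, with CD68 at 7.40 to 11.50, and in H1993 CD14 went from 8.21 to 8.72 and LYZ from 4.48 to 6.18. The part of these markers in the results was not tested.

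Promoters are shown for the 3 members whose signal passed the threshold upward in every line, SMAD7, TGFBI and TGFBR2, and for BAMBI, which had the largest rise of the members in H1993. Each is the 250 bases before the most upstream RefSeq start site, 5' to 3' on the gene's own strand, in build GRCh38.p14. Capitals mark CAGAC or its reverse complement GTCTG, the short box that the DNA-binding domain of SMAD3 and SMAD4 recognises.
SMAD7: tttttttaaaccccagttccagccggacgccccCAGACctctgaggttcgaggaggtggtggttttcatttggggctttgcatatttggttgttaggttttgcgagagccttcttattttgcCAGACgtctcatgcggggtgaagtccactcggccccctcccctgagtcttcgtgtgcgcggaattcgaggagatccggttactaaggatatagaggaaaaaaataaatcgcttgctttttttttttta
TGFBI: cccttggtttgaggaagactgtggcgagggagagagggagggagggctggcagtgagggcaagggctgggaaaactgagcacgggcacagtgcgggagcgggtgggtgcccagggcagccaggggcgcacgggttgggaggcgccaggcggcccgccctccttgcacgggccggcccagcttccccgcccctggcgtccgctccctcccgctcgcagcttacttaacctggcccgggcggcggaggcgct
TGFBR2: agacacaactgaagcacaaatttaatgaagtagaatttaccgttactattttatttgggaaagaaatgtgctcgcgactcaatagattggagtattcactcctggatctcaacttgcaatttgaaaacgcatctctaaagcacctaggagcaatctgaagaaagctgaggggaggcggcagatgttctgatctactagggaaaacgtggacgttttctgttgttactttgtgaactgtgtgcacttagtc
BAMBI: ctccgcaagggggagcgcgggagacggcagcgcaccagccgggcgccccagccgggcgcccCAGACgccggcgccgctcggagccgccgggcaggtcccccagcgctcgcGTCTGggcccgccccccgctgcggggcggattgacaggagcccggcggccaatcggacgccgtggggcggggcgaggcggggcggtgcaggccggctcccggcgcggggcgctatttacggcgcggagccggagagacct
The SMAD7 window is chr18:48950966-48951215 (minus strand), the TGFBI window chr5:136028738-136028987 (plus), the TGFBR2 window chr3:30606106-30606355 (plus) and the BAMBI window chr10:28677271-28677520 (plus). SMAD7 held 2 matches, whose first bases lie 217 and 128 bases before the start, and BAMBI held 2, at 189 and 140 bases. The other members lie on chr1:218345336-218444619 (TGFB2), chr3:170357715-170396849 (SKIL), chr15:67065602-67195169 (SMAD3), chr19:41330323-41353922 (TGFB1) and chr20:57648396-57711472 (PMEPA1). The TGFBI and TGFBR2 windows held none of these letters. Counting every start site of the 9 members, 9 of 19 windows (47.4%), from 6 members, held CAGAC on either strand, beside 38.0% of all 35116 windows. The palindrome GTCTAGAC, in which AGAC, the end of the box but not the whole box, stands on both strands, was in 0 member windows. It was in 0.182% of all windows. The AP-1 element TGANTCA was in 1 member window, a start site of SMAD3, and in 6.57% of all windows. A match describes the letters in the window and was not tested as a binding site.

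Knockdown was compared with the empty vector first, since that comparison is the one the series was set up for. In H1693 6 of the 9 members passed the threshold of 0.05 on the adjusted p of limma with Benjamini-Hochberg adjustment over all 16205 genes, 5 of them higher and 1 lower. Over all genes 33.0% were called in that line, 17.1% higher and 15.9% lower. In H1993 7 members were called and all were higher, beside 33.4% of all genes (18.9% higher and 14.5% lower). In H1650 all 9 were called, 7 higher and 2 lower, beside 53.4% of all genes (36.7% higher and 16.7% lower). The median change of the 9 members was 0.59 in H1650, 0.55 in H1693 and 0.60 in H1993 on the log2 scale, and that of all genes tested was 0.15, -0.02 and 0.02. The upward median of all genes in H1650 belongs beside every H1650 rise given here. Quantile normalisation of the tested genes, which gives the arrays one distribution again, left all 9 H1650 calls and their directions in place.

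**Figure D1:**
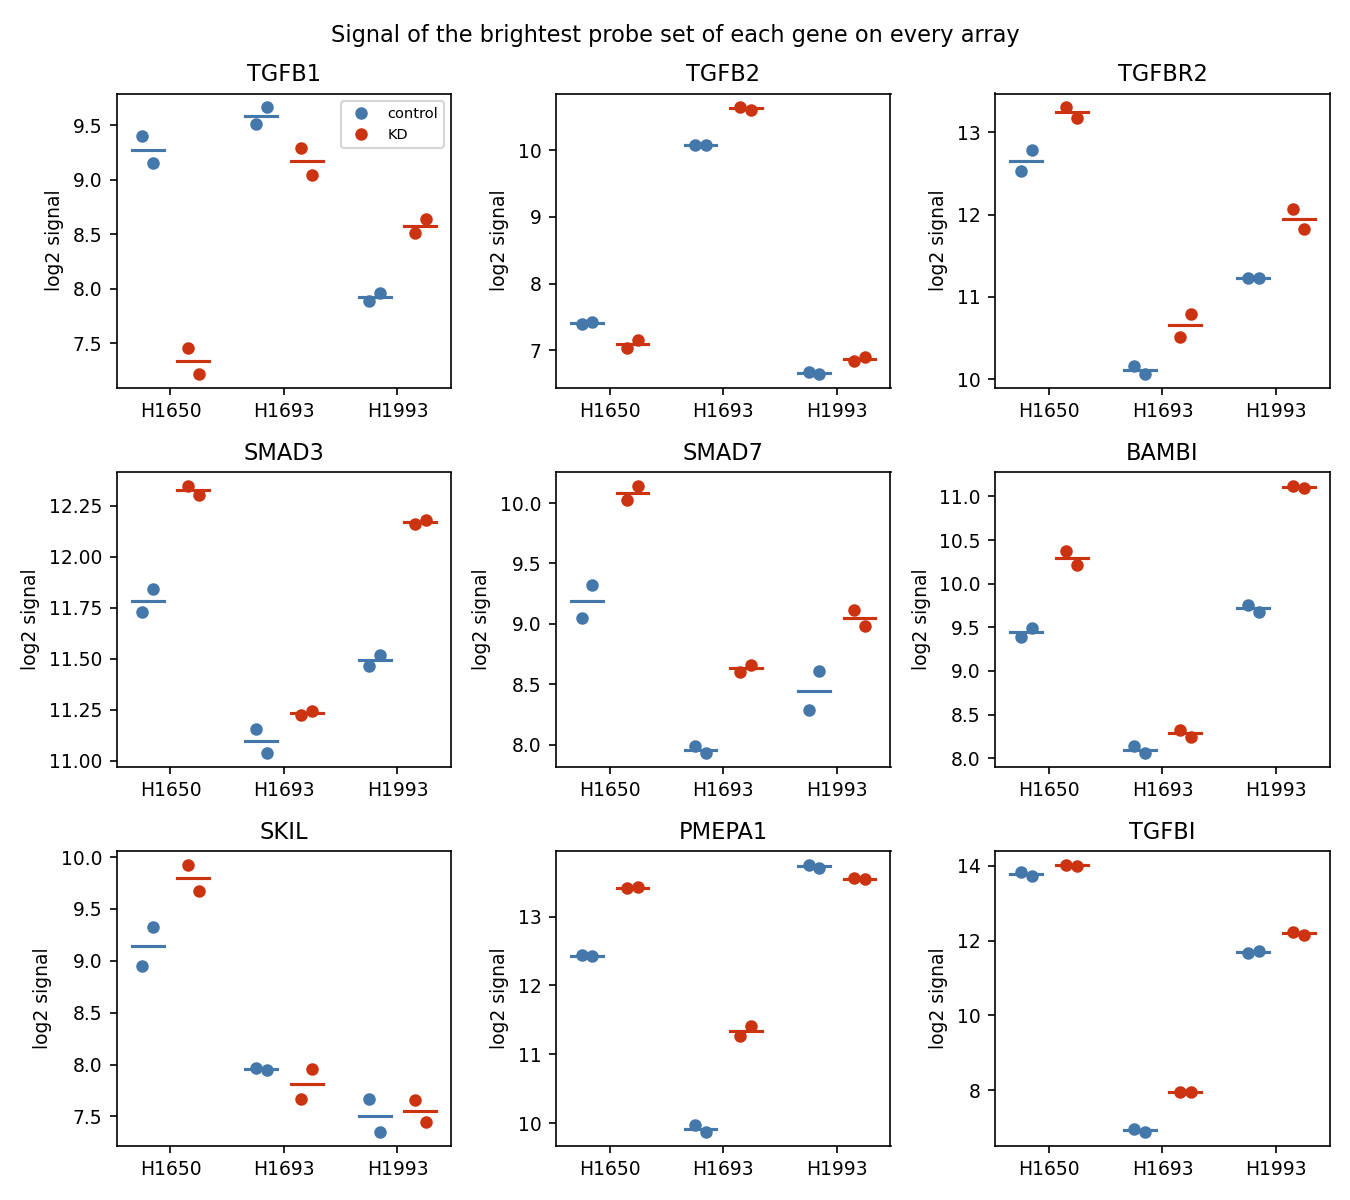
Log2 signal (vertical axis, a separate scale for each gene) of the brightest probe set of the 9 genes on each of the 12 arrays, by line, with control arrays in blue, knockdown arrays in red and horizontal lines at the group means. The SMAD7, TGFBR2 and TGFBI knockdown arrays lie above both control arrays in all lines, and TGFB1 lies below them in H1650 and H1693 and above them in H1993.

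TGFB1, the most widely expressed of the ligands, moved in opposite directions in different lines. In H1993 its single probe set read 7.89 and 7.96 in the control arrays and 8.51 and 8.64 in the knockdown arrays. Both knockdown arrays were above both controls, and the rise was 0.65 (SE 0.12, limma adjusted p = 0.00249), or 1.57-fold. In H1693 the control arrays read 9.51 and 9.67 and the knockdown arrays 9.29 and 9.05, a change of -0.42 (adjusted p = 0.0248), to 74.8% of the control. The H1693 groups did not overlap, but the call was lost without control replicate 2 (-0.34, adjusted p = 0.158) or knockdown replicate 2 (-0.30, adjusted p = 0.184). The H1993 change exceeded the H1693 change by 1.07 (SE 0.17, adjusted p = 0.0021).

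In H1650 TGFB1 went from 9.40 and 9.15 in the control arrays to 7.45 and 7.22, the largest change among the members' brightest probe sets in any line. The change was -1.94 (SE 0.12, adjusted p = 1.62e-06), to 26.0% of the control. TGFB1 has 1 probe set on the array, so no other set of probes bears on that fall, and the part of the 3' to 5' difference in it was not tested.

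TGFB2, a second ligand with its own latent complex, rose in H1693, where its signal was also highest. Control arrays of H1693 read 10.09 and 10.08 and knockdown arrays 10.65 and 10.61, a rise of 0.55 (SE 0.06, adjusted p = 0.000168). In H1993 the values were 6.68 and 6.64 against 6.84 and 6.90, a rise of 0.21 (adjusted p = 0.0303). The H1993 groups did not overlap, yet the call was lost on leaving out any 1 of the 4 H1993 arrays (0.18 to 0.24, adjusted p = 0.0629 to 0.147). In H1650 the brightest probe set went from 7.39 and 7.43 to 7.04 and 7.15, a fall of -0.31 (adjusted p = 0.00227). The other probe set of TGFB2 changed by 0.47 in H1650, and both sets were called, in opposite directions.

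TGFBR2, the type II receptor that binds the ligand and activates the type I receptor, rose in every line. H1693 control arrays read 10.16 and 10.06 and knockdown arrays 10.52 and 10.79, a rise of 0.55 (SE 0.12, adjusted p = 0.00673). In H1993 both controls were at 11.23 and the knockdown arrays at 12.07 and 11.83, a rise of 0.72 (adjusted p = 0.00141), or 1.64-fold. In H1650 the signal went from 12.53 and 12.78 to 13.31 and 13.17, a rise of 0.59 (adjusted p = 0.00256).

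No line showed overlap between its control and knockdown arrays for the brightest TGFBR2 probe set. The F test for a difference in the change between lines gave an adjusted p of 0.662, and the H1993 change exceeded that of H1693 by 0.17 (adjusted p = 0.548). Leaving out H1693 control replicate 2 or knockdown replicate 2 ended the H1693 call (0.50 and 0.41, adjusted p = 0.0510 and 0.0636). The dimmer TGFBR2 probe set changed by 0.37 in H1693, 0.45 in H1993 and -0.07 in H1650 and was called in none of them.

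SMAD3, which carries the signal from the type I receptor to DNA, rose in H1993. Its brightest probe set read 11.47 and 11.52 in the H1993 control arrays and 12.16 and 12.18 in the knockdown arrays, a rise of 0.68 (SE 0.07, adjusted p = 6.41e-05). All 5 SMAD3 probe sets were called higher in H1993, with changes of 0.44 to 0.68. In H1693 the arrays read 11.15 and 11.04 against 11.22 and 11.24, a change of 0.14 that did not pass (adjusted p = 0.163), and 1 of the 5 probe sets was called there. The H1993 change was larger than that of H1693 by 0.54 (adjusted p = 0.00379).

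In H1650 the brightest SMAD3 probe set went from 11.73 and 11.84 to 12.35 and 12.30, a rise of 0.54 (adjusted p = 0.000126), while another SMAD3 probe set changed by -2.41. The 5 sets spanned 2.95 in H1650, against 0.46 in H1693 and 0.23 in H1993. Over the 11120 tested genes with several probe sets, the median span was 0.57, 0.23 and 0.24. That span takes in sets below the filter level, while all the members' sets passed it. The direction of SMAD3 in H1650 therefore depends on the probe set read.

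SMAD7, the inhibitory SMAD that blocks the type I receptor and is itself induced by the pathway, rose in every line. H1693 control arrays read 7.99 and 7.93 and knockdown arrays 8.60 and 8.66, a rise of 0.67 (SE 0.12, adjusted p = 0.00186), or 1.60-fold. In H1993 the values were 8.29 and 8.61 against 9.11 and 8.98, a rise of 0.60 (adjusted p = 0.00343). In H1650 they were 9.05 and 9.32 against 10.02 and 10.14, a rise of 0.90 (adjusted p = 0.000162).

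The SMAD7 groups did not overlap in any line, and the call was kept under each of the 20 or 21 alternatives run per line. The change was not shown to differ between lines (F test adjusted p = 0.306). All 3 SMAD7 probe sets changed upward in all lines, by 0.40 to 0.67 in H1693, 0.41 to 0.60 in H1993 and 0.19 to 0.90 in H1650, and 2 of the 3 were called in each.

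BAMBI, a membrane protein that resembles the type I receptor without its kinase domain and damps the signal, rose in H1993 and H1650. The H1993 control arrays read 9.76 and 9.67 and the knockdown arrays 11.12 and 11.10, a rise of 1.39 (SE 0.08, adjusted p = 2.08e-06), or 2.63-fold. In H1693 they read 8.14 and 8.06 against 8.33 and 8.25, a change of 0.19 that missed the threshold (adjusted p = 0.0924) although the groups did not overlap. The change in H1993 was larger than in H1693 by 1.20 (SE 0.11, adjusted p = 8.96e-05). In H1650 the signal went from 9.39 and 9.49 to 10.37 and 10.21, a rise of 0.85 (adjusted p = 1.58e-05), from the gene's only probe set.

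PMEPA1, a membrane adaptor that sequesters receptor-activated SMADs and is induced by the pathway, showed the reverse order of the same lines. In H1693 the control arrays read 9.98 and 9.87 and the knockdown arrays 11.26 and 11.41, a rise of 1.42 (SE 0.07, adjusted p = 1.88e-06), or 2.67-fold. All 3 of its probe sets were called higher in H1693, by 1.33 to 1.74. In H1993 the arrays read 13.75 and 13.71 against 13.56 and 13.54, a change of -0.18 that missed the threshold (adjusted p = 0.0792) with knockdown arrays below both controls. It passed in 1 alternative, a mean-dependent prior on the variance (adjusted p = 0.0173). The H1993 change differed from the H1693 change by -1.60 (SE 0.10, adjusted p = 1.52e-05).

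In H1650 the brightest PMEPA1 probe set went from 12.44 and 12.42 to 13.41 and 13.44, a rise of 0.99 (adjusted p = 3.25e-06). A second set changed by 0.85 and the third by -0.42, and all 3 were called.

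SKIL, the SnoN corepressor that holds SMAD complexes inactive, rose in H1650 and was called in neither of the other lines. In H1650 the control arrays read 8.95 and 9.32 and the knockdown arrays 9.92 and 9.67, a rise of 0.66 (SE 0.16, adjusted p = 0.00609) that was lost without control replicate 1 (0.47, adjusted p = 0.0546). In H1693 the values were 7.96 and 7.94 against 7.67 and 7.96, a change of -0.14 (95% interval -0.50 to 0.22). In H1993 they were 7.67 and 7.35 against 7.66 and 7.45, a change of 0.05 (95% interval -0.32 to 0.41). Groups overlapped in both of these lines, and none of the 3 SKIL probe sets was called in either. Of the 3 sets, 2 were called higher in H1650, and the other changed by 0.05 there with overlapping groups and was not called. The F test for a difference between the lines gave an adjusted p of 0.0291.

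TGFBI, a secreted matrix protein that binds integrins and is induced by TGF-beta in many cell types, rose in every line. The rise was largest in H1693, the line where its signal was lowest: 6.97 and 6.87 in the control arrays against 7.95 and 7.96, a rise of 1.04 (SE 0.07, adjusted p = 6.94e-06), or 2.05-fold. In H1993 the arrays read 11.67 and 11.73 against 12.23 and 12.16, a rise of 0.49 (adjusted p = 0.000425). The H1693 rise exceeded the H1993 rise, with a difference, H1993 minus H1693, of -0.54 (adjusted p = 0.00357). All 4 TGFBI probe sets were called higher in H1693 (0.61 to 1.29) and in H1993 (0.47 to 0.49).

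In H1650 TGFBI read 13.85 and 13.74 in the control and 14.03 and 14.00 in the knockdown arrays. The rise of 0.22 (adjusted p = 0.0212) was lost without control replicate 2 (0.17, adjusted p = 0.129) or knockdown replicate 1 (0.21, adjusted p = 0.0739). Of the 4 probe sets, 3 were called higher there and 1 lower, at -1.06, and the mean of the 4 changed by -0.0059.

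**Figure D2:**
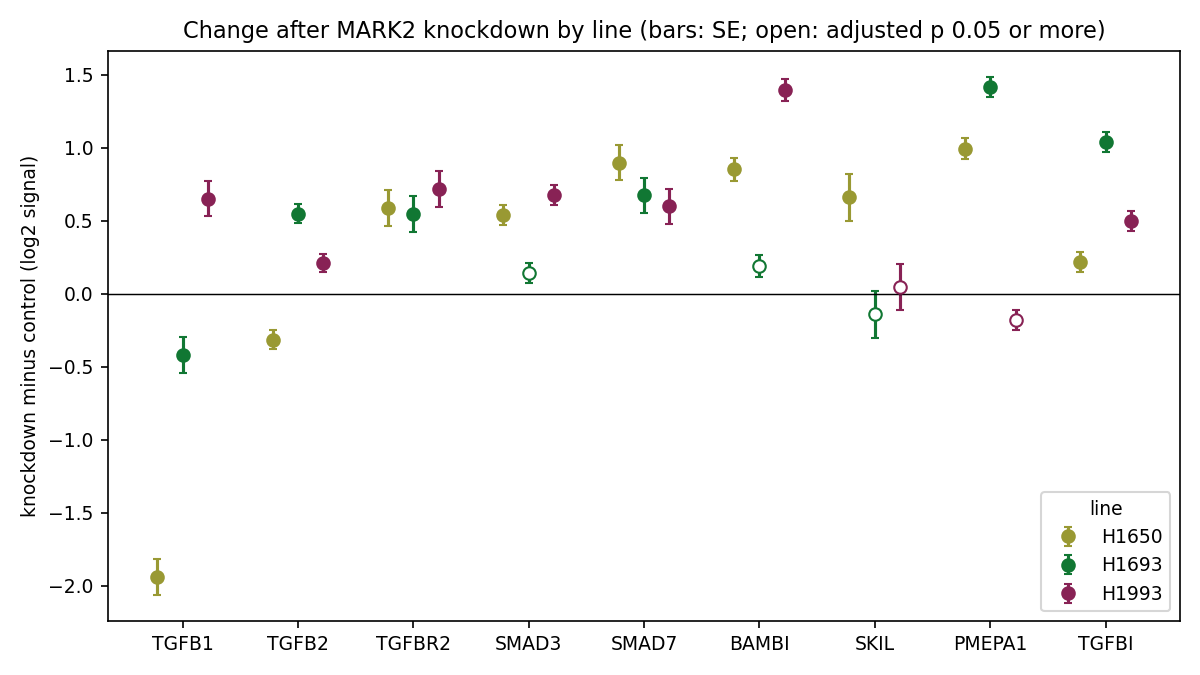
Change of the brightest probe set of each gene (vertical axis, knockdown minus control in log2 signal, with the standard error of the limma fit as bars) in H1650, H1693 and H1993, with open symbols where the adjusted p was 0.05 or more. BAMBI is highest in H1993 at 1.39, PMEPA1 in H1693 at 1.42, and TGFB1 spans -1.94 in H1650 to 0.65 in H1993.

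The lines differed in how most of these genes changed. By the F test across lines 7 of the 9 members were called, all but SMAD7 and TGFBR2, beside 54.9% of all genes. That test includes H1650, so the contrast of H1993 with H1693, where the 3' and 5' control probes changed little, was taken separately. In it 6 members were called, beside 22.1% of all genes. BAMBI, SMAD3 and TGFB1 changed more upward in H1993, and PMEPA1, TGFBI and TGFB2 more upward in H1693. The difference for TGFB2 was -0.34 (adjusted p = 0.0254).

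Members called higher in both H1693 and H1993 were SMAD7, TGFBI, TGFB2 and TGFBR2, 4 of 9 (44.4%), beside 8.38% of all genes tested. Of these, the TGFB2 call in H1993 was lost in 8 of 21 alternatives. In the limma fit to all probe sets neither TGFB2 set was called in H1993 (adjusted p = 0.0539 and 0.215). TGFB1 was called in opposite directions in H1693 and H1993, and SKIL in neither. SMAD7, TGFBI and TGFBR2 were called higher in all 3 lines, 33.3% of the members beside 5.42% of all genes. In a fit of the H1693 and H1993 arrays alone, added after the data were seen, 5 members were called higher and 1 lower in H1693, and 7 higher in H1993.

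Across probe sets the members' calls were more uniform in H1693 and H1993 than in H1650. Of the 24 probe sets, 14 were called in H1693 (13 higher, 1 lower), beside 29.1% of all probe sets tested. In H1993 14 were called, all higher, beside 28.7%, and in H1650 19 were called (14 higher, 5 lower), beside 51.3%. Among the 7 genes with several probe sets, PMEPA1, SMAD3, TGFB2 and TGFBI had sets called in both directions in H1650. The number of such genes was 0 in H1693 and 0 in H1993. Wider spread in H1650 was not special to the members. Over 11120 genes the span between sets had a median of 0.57 there, beside 0.23 in H1693 and 0.24 in H1993. The share of those 11120 with sets called in opposite directions was not counted, so the members' count has no such background. Positions of the probes along the transcripts were not used here, and the part of RNA integrity in these opposite calls was not tested.

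**Figure D3:**
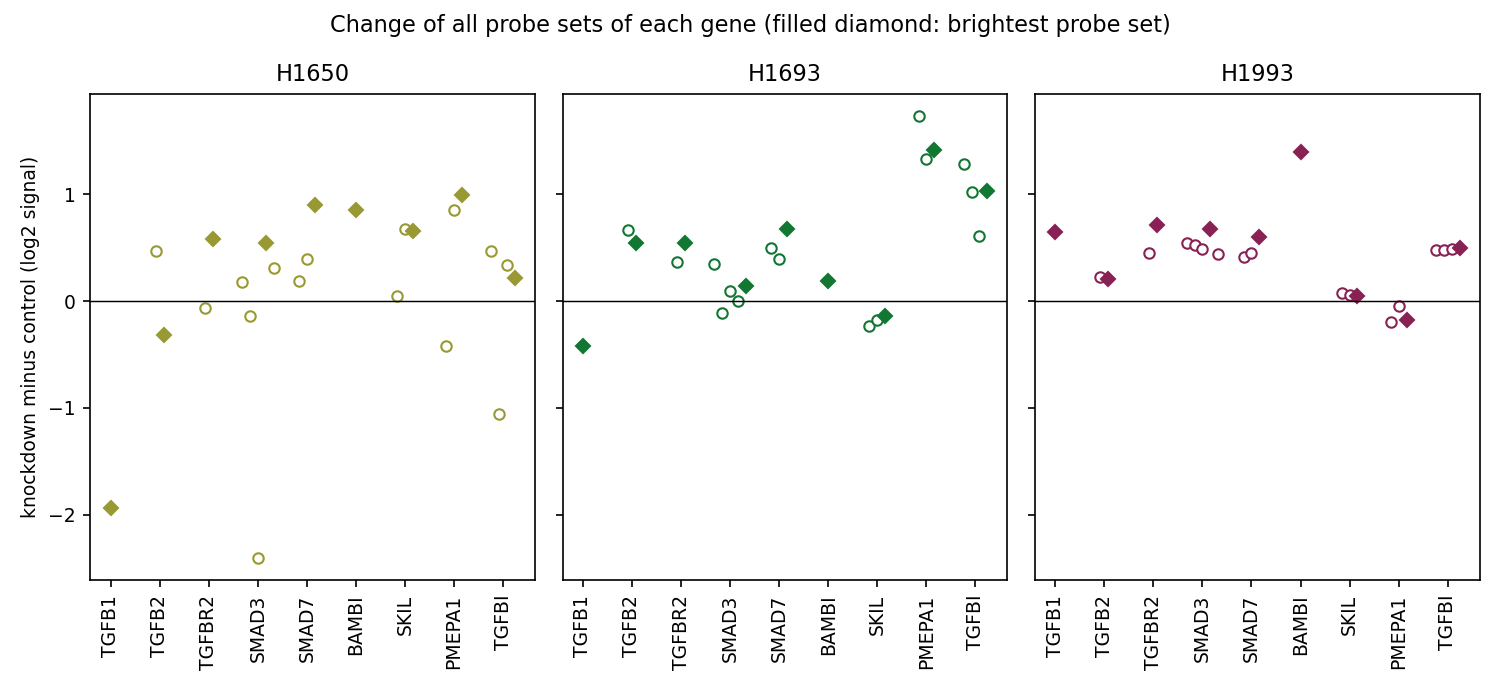
Change of each of the 24 probe sets (vertical axis, knockdown minus control in log2 signal) by gene in H1650, H1693 and H1993, with the brightest set of a gene as a filled diamond and the others as open circles. In H1650 the SMAD3 sets span 2.95 and the TGFBI sets 1.52, against 0.23 and 0.02 in H1993.

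Levels in the empty vector arrays were then compared between lines, each gene with itself. All 9 members were called in each pair of lines, beside 63.0% of all genes for H1693 against H1650, 63.8% for H1993 against H1650 and 63.0% for H1993 against H1693. TGFBI had the widest range. Its brightest probe set averaged 13.79 in H1650, 11.70 in H1993 and 6.92 in H1693. H1993 exceeded H1693 by 4.78 (SE 0.07, limma adjusted p = 1.08e-11), or 27.5-fold, and H1693 minus H1650 was -6.88, a size that 32 of the tested genes exceeded. All 4 TGFBI probe sets gave this order.

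PMEPA1 was highest in H1993, then H1650, then H1693, on each of its 3 probe sets, and H1993 exceeded H1693 by 3.81 (adjusted p = 4.47e-11), or 14.0-fold. The ligands took the reverse order of those lines. TGFB2 was 10.08 in H1693 and 6.66 in H1993, a difference, H1993 minus H1693, of -3.43 (adjusted p = 4.88e-11), and TGFB1 differed by -1.66 (adjusted p = 7.57e-07). BAMBI was higher in H1993 than in H1693 by 1.62 and TGFBR2 by 1.12. SMAD7 and SMAD3 were higher in H1993 by 0.49 and 0.40 (adjusted p = 0.00448 and 0.0005).

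SKIL followed H1650, H1693 and H1993 in falling order on all 3 probe sets, but its last step of -0.45 (adjusted p = 0.0331) was lost in 4 of 20 alternatives (adjusted p up to 0.219). TGFB1 in H1693 and H1650 differed by 0.31 (adjusted p = 0.0473), a call lost in 10 of 19 alternatives, with adjusted p up to 0.280. BAMBI in H1993 exceeded H1650 by 0.27, which did not pass without control replicate 1 of either line (adjusted p = 0.0687 and 0.0693). These neighbours in the order of lines are therefore not firmly separated.

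The place of H1650 in the order depended on the probe set for SMAD7, SMAD3, TGFBR2 and TGFB2. The brightest SMAD7 set was highest in H1650 (9.19, against 7.96 in H1693 and 8.45 in H1993), while both dimmer SMAD7 sets were lowest there, 1.25 and 1.39 below H1693. The brightest TGFBR2 set differed by -1.42 for H1993 minus H1650, and the dimmer set by 0.93. H1650 control arrays already had the 3' over 5' excess of 2.68 given above, and its part in these orders was not tested.

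The rest of the pathway was read from 7 lists, 90 genes in all without the 9 members, of which 86 passed the filter on low signal. Over these 86 genes 26 were called higher and 14 lower in H1693, 30 and 16 in H1993, and 41 and 14 in H1650. The shares of all genes to read these and the later list counts against are 17.1% higher and 15.9% lower in H1693, 18.9% and 14.5% in H1993, and 36.7% and 16.7% in H1650. Their median changes of 0.08, 0.13 and 0.17 compare with the -0.02, 0.02 and 0.15 of all genes. Counts and medians describe the lists and carry no test of their own. The genes not tested here include ITGB6, BMPR1A and LDLRAD4.

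The other receptors of the superfamily numbered 9. Of these 4 were called higher and 0 lower in H1693 (median 0.22), 6 and 0 in H1993 (median 0.37), and 8 and 1 in H1650 (median 0.77). The shares of all genes called higher were 17.1%, 18.9% and 36.7%, and those called lower 15.9%, 14.5% and 16.7%. ACVR1, ACVR2A, ACVR2B and BMPR2, 44.4% of the list, were called higher in all 3 lines, beside 5.42% of all genes. ACVR2B, an activin type II receptor, changed by 0.93 in H1693, 0.78 in H1993 and 1.17 in H1650. BMPR2, the type II receptor for bone morphogenetic proteins (BMPs), changed by 0.69, 1.18 and 0.40 in the same order of lines. BMPR1B rose by 1.08 in H1993 and changed by -0.04 in H1693. ACVR1 in H1650 was 1.44 on its brightest set, and its sets there ran from -2.66 to 1.44. These calls rest on the brightest set of each gene. The ACVR2B sets ran from -0.07 to 0.78 in H1993 and from 0.06 to 1.17 in H1650. The BMPR2 sets ran from -0.26 to 0.40 in H1650.

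Ligands and the proteins that store and release them went both ways. Of 19 genes 6 were higher and 2 lower in H1693, 3 and 5 in H1993, and 8 and 2 in H1650. ITGB8, an integrin subunit that frees TGF-beta from its latent complex, rose by 1.12 in H1693, 1.24 in H1993 and 1.87 in H1650 on its brightest probe set. Its 4 sets ran from 0.51 to 1.12 in H1693, -0.25 to 1.24 in H1993 and 0.39 to 1.87 in H1650. INHBB, an activin subunit, moved in opposite directions, from 4.76 to 6.22 in H1693 and from 12.10 to 11.01 in H1993. Its H1693 control mean (SD 0.47, n = 2) lay below the filter level of 5, and the gene has 1 probe set. BMP4, called higher in every line and chosen here for that, changed by 0.73 in H1693, 0.56 in H1993 and 0.72 in H1650. GDF15, a stress-induced ligand, rose by 1.95 in H1693, and FST, which binds and neutralises activin, fell in H1993 with a change of -1.44. LTBP3, which tethers latent ligand to the matrix, changed by -1.35 in H1650.

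Among the other SMADs and their partners, 9 genes, 3 were called higher in H1693 (SMAD2 at 0.26, ZFYVE9 at 0.66 and TRIM33 at 0.44), 1 in H1993 (TRIM33 at 0.41) and 6 in H1650, with none lower. Over all genes 17.1%, 18.9% and 36.7% were called higher in those lines. Other negative regulators, 10 genes, numbered 1 higher and 1 lower in H1693, 5 and 1 in H1993, and 7 and 2 in H1650. Those that rose most in H1993 were SMURF1, a ubiquitin ligase for SMADs and receptors (0.94), the corepressor TGIF2 (0.88) and the corepressor SKI (0.76). SKI, the relative of SKIL, also rose in H1650 (0.78). In H1693 the inhibitory SMAD6 rose by 0.36 and STRAP changed by -0.26.

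**Figure D4:**
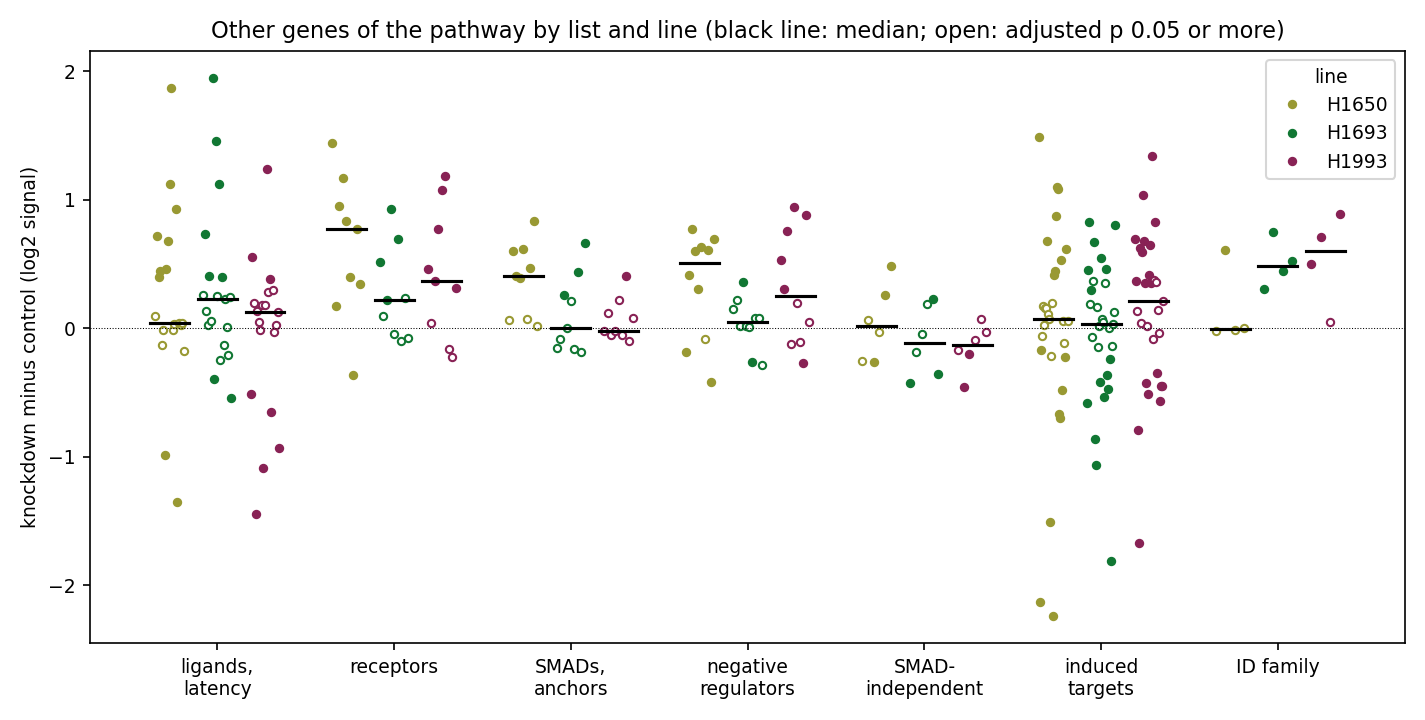
Change of the 86 tested genes of the other lists (vertical axis, knockdown minus control in log2 signal of the brightest probe set) by list and line, filled where the adjusted p was under 0.05, with black lines at the medians. The receptor medians are 0.77, 0.22 and 0.37 in H1650, H1693 and H1993, and the induced targets run from -2.24 to above 1 with medians of 0.07, 0.04 and 0.22.

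Genes commonly induced by TGF-beta did not share a direction. Of 29 genes 7 were higher and 9 lower in H1693 (median 0.04), 12 and 8 in H1993 (median 0.22), and 9 and 8 in H1650 (median 0.07). Of these 6 were called in opposite directions in H1693 and H1993, beside 453 of all 16205 genes tested. COL4A1, a basement membrane collagen, changed by -0.86 in H1693 and 1.04 in H1993, and COL4A2, which shares its promoter region, by -1.06 and 0.68. CCN2, a matricellular growth factor, fell in H1993 with a change of -1.67 and rose in H1693 by 0.30. TAGLN, an actin-binding protein of contractile cells, changed by -1.81 in H1693 and -0.03 in H1993. In H1650 the largest changes were in JUNB (-2.24), ANGPTL4 (-2.13) and HMOX1 (-1.51), each beside the 3' to 5' difference above.

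The ID genes, inhibitors of helix-loop-helix factors that respond mainly to BMPs, number 4. All 4 were called higher in H1693 (median 0.48), 3 of 4 in H1993 (median 0.61), where ID3 changed by 0.05 and was not called, and 1 in H1650, where ID2 was the one called. ID2 was called in every line, at 0.75 in H1693, 0.71 in H1993 and 0.61 in H1650. ID4 rose by 0.52 in H1693 and 0.89 in H1993. Its H1993 control mean of 4.98 lay below the filter level of 5, and its 4 probe sets there ran from 0.08 to 1.02. Among the genes that act apart from SMADs, 6 in all, 1 was higher and 2 lower in H1693, and 0 and 2 in H1993. MAP3K7, the kinase TAK1, changed by -0.46 in H1993, and DAXX by -0.43 in H1693.

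For each member the 2 tested genes whose log2 signal followed it most closely over the 12 arrays were listed, out of 16196 others. These correlations are a description: the arrays share 3 lines, and differences between lines dominate them. TGFBI was followed by CAMK2N1 (Pearson r = 0.999) and PPM1F (0.998), BAMBI by LHFPL2 (0.996) and SFXN3 (0.990), and TGFB2 by ZNF74 (0.996) and SLC38A2 (0.995). TGFBR2 was followed by TIGD2 and DTX3L (both 0.995), SMAD7 by GIT2 (0.992) and VPS37C (0.990), and SKIL by AEBP2 (0.992) and CMTR2 (0.991). For SMAD3 the closest were ADGRA3 (0.990) and PRRG1 (0.987), and for PMEPA1 TMEM167B and ZBTB38 (both 0.989). TGFB1 had the least close, CNOT8 (0.974) and RNF25 (0.971).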

How the data were processed

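The table holds 1 log2 signal per probe set and array, deposited by the authors. Per the submitters' processing notes it came from RMA in Affymetrix Expression Console. No version of either, and no sequence or number of hairpins, was given in the sources used here. RMA corrects for background, brings the arrays to a common distribution and combines each set's probes, so 1 unit is a doubling of signal and low signals are compressed. Array medians ran from 7.13 to 7.32, and the number of arrays limits the precision. The replicates are biological per the series' design text, and the labels only number them.

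The platform annotation named the probe sets, and 1832 with several genes, 2569 with none and 102 controls were left out. Gene IDs of 44961 of the remaining 44988 matched RefSeq of GRCh38.p14. Each gene was read from its brightest probe set (by the mean of all arrays), and genes at a log2 signal of at least 5 on at least 2 arrays were tested.

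Group means were fitted over the 12 arrays in limma 3.58.1 (R 4.3.3) with eBayes (residual degrees of freedom 6, prior degrees of freedom 3.52). Tests were two-sided, adjusted by Benjamini-Hochberg over 16205 genes, with a threshold of 0.05. The same model was fitted to 38924 probe sets. Intervals are 95%, from that fit. The scripts were tested on simulated data. Alternatives covered normalisation, the filter, the probe set rule, the variance prior, the replicate number as a block, the lines fitted, a 1.5-fold minimum and leaving out each array.

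The members and lists were chosen with earlier results of these data known. Named genes are the members, MARK2, up to 3 called genes with the largest change per list and line, and the 2 closest genes by correlation. Values of such a gene in further lines, the receptors and BMP4 called in every line, and the markers named were chosen after their values were seen.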

Additional observations from a re-analysis of the deposited data

Results flagged for a closer look

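For 7 members the change after knockdown differed between the lines by limma's F test of that difference, with Benjamini-Hochberg adjustment over 16205 genes. The adjusted p was 7.42e-06 for PMEPA1 (changes of 0.99 in H1650, 1.42 in H1693 and -0.18 in H1993) and 1.13e-05 for TGFB1 (-1.94, -0.42 and 0.65). It was 6.16e-05 for BAMBI (0.85, 0.19 and 1.39), 0.000136 for TGFB2 (-0.31, 0.55 and 0.21) and 0.000261 for TGFBI (0.22, 1.04 and 0.49). For SMAD3 it was 0.00274 (0.54, 0.14 and 0.68), and for SKIL 0.0291 (0.66, -0.14 and 0.05). The difference held between H1993 and H1693 alone for 6 of these members, while SKIL did not pass there (difference 0.19, adjusted p = 0.627). Each of the 7 tests includes H1650, where the 3' over 5' excess of the GAPDH control probes rose from 2.68 to 6.82, and the part of that in the differences was not tested. Over all genes 54.9% passed the same F test. Groups of 2 arrays are too small for a check of single outlying arrays.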

How the results depend on the processing

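The counts of members called stayed within 1.5 times the reported count under every alternative but one: in H1693 3 members had both an adjusted p under the threshold and a change of at least 1.5-fold, against 6 without that minimum. Leaving out 1 array at a time gave 8 to 9 members called in H1650, 4 to 6 in H1693, 6 to 7 in H1993, 8 to 9 in each comparison of control arrays, 6 to 7 in the F test and 5 to 6 in the contrast of H1993 with H1693.

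Reading a gene as the mean of its probe sets turned 7 values. These were the H1650 changes of SMAD3 (-0.30, adjusted p = 0.00266), TGFB2 (0.079, adjusted p = 0.388) and TGFBI (-0.0059, adjusted p = 0.947), and differences between control arrays that involve H1650: SMAD7 at 0.47 for H1693 and 0.77 for H1993, and SMAD3 at 0.20 for H1693 and 1.17 for H1993. The cause was not tested.

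Of 558 values of single members for knockdown minus control, 537 kept direction and side of the threshold, 17 lost the call, 1 gained it and 3 turned. Of 522 for the control arrays, 501 kept both, 17 lost the call and 4 turned. Quantile normalisation lost TGFB2 in H1993 (0.15, adjusted p = 0.133).

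The replicate numbers share only a number: within lines the replicate differences of control and knockdown arrays correlated at -0.11 in H1650, -0.18 in H1693 and 0.29 in H1993. With the replicate number as a block, the replicate block, 9 members were called in H1650, 6 in H1693 and 7 in H1993, and with the block within each line 8, 6 and 6.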

Other observations

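Of the mesenchymal markers read beside these genes, LUM, a collagen-binding proteoglycan, went from 3.74 to 5.74 in H1993 and from 10.92 to 11.86 in H1693. VIM, the intermediate filament of mesenchymal cells, was at 9.09 in the H1993 control and 8.62 in the H1993 knockdown arrays, and at 12.79 and 12.85 in H1693. CDH1, the epithelial cadherin, was at 12.66 and 13.50 in H1993 and at 12.11 and 12.83 in H1693. In H1650 LUM was at 3.33 and 3.98, VIM at 14.14 and 14.27 and CDH1 at 13.80 and 13.83. Other markers of these lists went either way. KRT19 was at 14.47 and 14.74 in H1993 and at 12.57 and 12.45 in H1693. CDH2 was at 7.12 and 7.07 in H1993 and at 8.43 and 8.36 in H1693. COL1A1 was at 8.11 and 8.70 in H1993 and at 9.85 and 10.52 in H1693. These genes were chosen from the marker lists after their values were seen and are given as group means of log2 signal with no test.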
